A study of Mus musculus with 11 samples.

Results

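The 31 genes described here act in homologous recombination, in the Fanconi anaemia pathway and in the checkpoint that signals damaged or stalled DNA. They were taken by gene symbol from a list drawn up with earlier results of these data known, out of 17181 genes in the deposited table; no measured value is part of the rule. All 31 were found, and all 31 passed the filter on low values (2 or more libraries reaching an FPKM of 1), which 13074 genes of the table passed. FPKM is a count of sequenced fragments divided by transcript length and library size, so that levels can be compared between genes. By role the genes are checkpoint genes (5), end resection genes (4), BRCA complex genes (5), strand exchange genes (5), Fanconi genes (7) and genes that take apart joined DNA molecules (5).

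Homologous recombination repairs a broken chromosome by copying the sister chromatid. The ends are first resected to single strands, BRCA1, BARD1, PALB2 and BRCA2 then prepare these for strand exchange, and the prepared strand invades the intact copy with the help of further proteins. Fanconi proteins unhook crosslinks between the strands and hand the break to recombination, and the ATR branch of the checkpoint holds the cycle while this happens. Many of these genes are known to be transcribed mainly in cycling cells, under E2F factors that RB holds back until CDK4 and CDK6 phosphorylate it. Breast cancers of carriers of BRCA1 mutations are often triple-negative.

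RNA was measured in 11 tumours of 4T1 cells, a mouse mammary carcinoma line labelled as triple-negative and as wild type. Cells were placed under the skin of both flanks, and drugs were given for 12 days from a tumour volume of about 100 mm3. The groups were vehicle of both drugs (n = 2), OPG-Fc injected into the abdomen at 10 mg/kg, 3 times weekly (n = 3), daily palbociclib by mouth at 30 mg/kg (n = 3), and both drugs at these doses (n = 3). Palbociclib inhibits CDK4 and CDK6, and OPG-Fc captures RANKL as a soluble decoy for its receptor RANK. The titles call the vehicle tumours untreated. The series text names NSG mice, a strain without mature lymphocytes, while its title calls the model syngeneic, and the age of the mice is not given in the sources used here. Nor is it said which tumours grew in the same animal, and p-values therefore reflect the spread between the tumours at hand, which may share animals. The column names of combination replicates 1 and 2 have their first number in common, as have those of OPG-Fc replicates 2 and 3. What this number stands for is not given in the sources used here, and these pairs may not be independent.

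Summed FPKM per library ran from 576699 to 864670, and the read depth is unknown. Vehicle replicate 2 stood apart. The tumour cell genes Epcam and Krt8 were at 11.71 and 9.34 FPKM there, against 336.26 to 604.1 and 587.33 to 822.7 in the other 10 libraries. The B cell gene Cd79a was at 722.98 in it, 73.58 in OPG-Fc replicate 2, and 0.06 to 3.36 elsewhere. The median of 10 lymphoid markers, none of them at 0 in this library, was 217 FPKM, against 17.4 in OPG-Fc replicate 2 and 0.18 to 2.98 in the other 9. The median of 9 skin markers was 113 in palbociclib replicate 1 and 73.4 in replicate 3, and at most 9.44 elsewhere. Medians of 8 fat markers were 27.2 to 90.8 in the OPG-Fc tumours and 54.8 in vehicle replicate 2. They were 13.9 and 22.4 in combination replicates 1 and 3, and 1.3 to 3.2 elsewhere. Those of 6 muscle markers ran from 0.105 to 45.9 over all libraries. The labels give the tissue as breast and the cell type as epithelial, which the markers of vehicle replicate 2 go against. Every comparison is therefore also given without it, which leaves the vehicle group with 1 library whose spread is borrowed from the 3 treated groups. In bulk tumour RNA, fewer cells of a type and less RNA per cell cannot be told apart.

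None of the 31 genes passed the test in any of the 9 comparisons, with all 11 libraries or without vehicle replicate 2. The test was limma on log2(FPKM + 1), with Benjamini-Hochberg adjustment over all 13074 genes and a threshold of 0.05. The smallest adjusted p of limma was 0.0715, for Atm in the combination against vehicle. What follows describes the levels of the genes, how they moved between tumours, and the size and error of each difference. Where 2 groups did not overlap in a gene, the share of all tested genes doing the same is given with that comparison. Differences are on the log2(FPKM + 1) scale with their standard errors, which understates the change of genes at a few FPKM.

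The genes were expressed at low to moderate levels. Their median level, taken as the median over genes of the median FPKM over libraries, was 5.01, against 12.02 over all genes tested. Topbp1, the activator of the ATR kinase, was the highest at a median FPKM of 31.55. It was followed by Chek1 at 16, Rbbp8 at 13.05, Rad50 at 11.06 and Nbn at 10.87, and these were the 5 genes at 10 or more. A median FPKM under 5 was found for 15 genes, and the lowest were Rmi2 at 1.06, Fancm at 1.68 and Fanci at 1.95. All but Rmi2 and Fancm reached an FPKM of 1 in all 11 libraries. Leaving out vehicle replicate 2, the highest library exceeded the lowest by a median of 1.87-fold, against 1.94-fold over the tested genes above 0 in all 10 libraries. This ratio was smallest for Fancg, at 1.34-fold, and largest for Atm, at 2.67-fold.

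**Figure D1:**
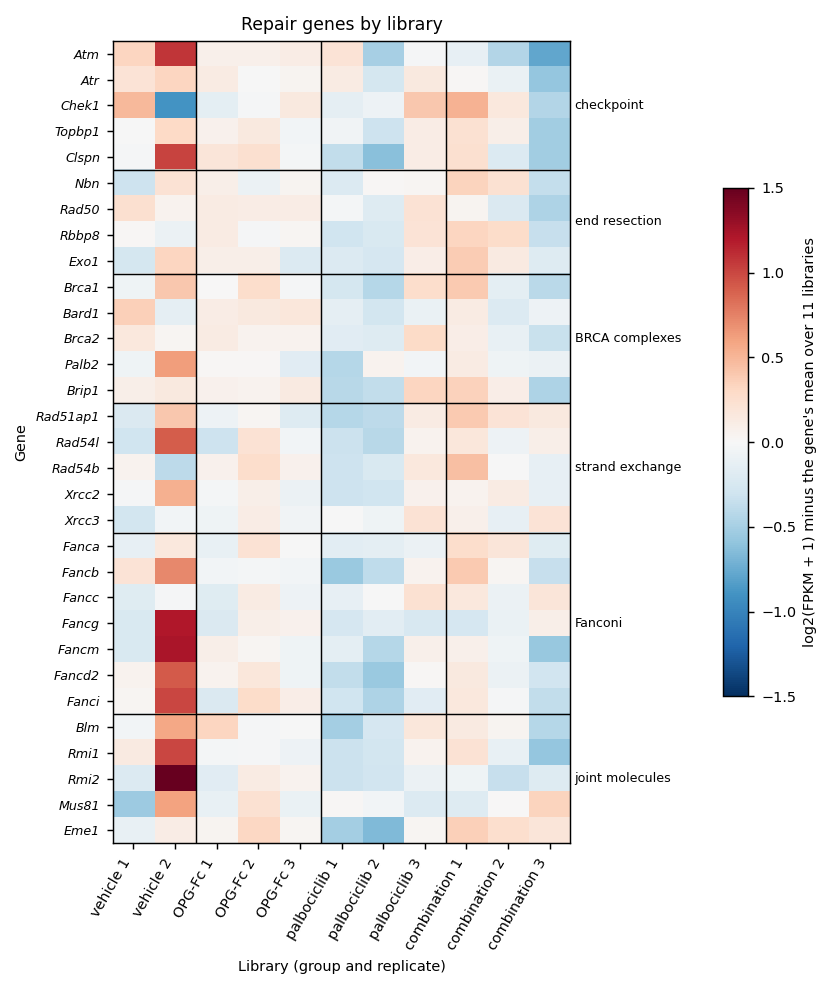
Each row is a gene, grouped by role, and each column is a tumour library. Colour gives log2(FPKM + 1) minus the gene's mean over 11 libraries, from blue (lower) to red (higher). Vehicle replicate 2 has the strongest reds and holds the highest value of 18 genes, palbociclib replicates 1 and 2 and combination replicate 3 are mostly blue, and palbociclib replicate 3 and combination replicate 1 are mostly red.

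Promoter sequence was looked at because many of these genes are known to be transcribed mainly in cycling cells. RefSeq promoters on the build GRCm38.p6 were matched by symbol for 23 of the 31 genes and for 13449 genes of the table. Nbn, Rad50, Rbbp8, Exo1, Rad54b, Xrcc2, Fancd2 and Rmi2 were not matched. The 250 bases before the start were searched on both strands. The full E2F letters TTTCGCGC or TTTGGCGC were found in 1 of the 23 (4.35%), that of Topbp1, and in 1.24% of all matched promoters. A shorter E2F-type motif, GCGGGAA, was found in 5 of the 23 (21.7%), those of Bard1, Brca2, Fancb, Fancg and Fancm, and in 7.06% of all. The CHR motif TTTGAA, known from genes of the G2 and M phases, was found in Bard1 alone (4.35%), and in 14% of all. CCAAT, the motif of the factor NF-Y, was found in 13 of the 23 (56.5%) and in 39.9% of all. These matches describe letters in the sequence and do not show that a factor binds there.

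The stretch of Bard1 is shown because it was the sole gene of those described per library below with a full E2F or CHR match, and those of Topbp1, Brip1, Clspn and Fancm were added after the matches were seen, for the E2F letters, for 3 and 2 CCAAT matches and for CCAAT close to GCGGGAA. Sequences run 5′ to 3′ on the strand of the gene, from RefSeq on GRCm38.p6, and no match shares bases with another. Capitals mark the matches, and a motif that lies on the other strand appears as its reverse complement (CCAAT then reads ATTGG).
Topbp1, chr9:103305177-103305226, plus strand: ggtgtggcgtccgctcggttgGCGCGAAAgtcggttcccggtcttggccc
Bard1, chr1:71103153-71103222, minus strand: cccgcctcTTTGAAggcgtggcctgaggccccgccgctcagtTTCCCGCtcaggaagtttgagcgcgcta
Brip1, chr11:86201214-86201303, minus strand: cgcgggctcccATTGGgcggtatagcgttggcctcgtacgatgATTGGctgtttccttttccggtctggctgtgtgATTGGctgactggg
Clspn, chr4:126556890-126556979, plus strand: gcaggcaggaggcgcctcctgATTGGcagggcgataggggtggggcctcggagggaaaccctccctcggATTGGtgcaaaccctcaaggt
Fancm, chr12:65075523-65075572, plus strand: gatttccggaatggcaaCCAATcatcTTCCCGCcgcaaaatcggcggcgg
In Topbp1 the E2F match began 129 bases before the start, and in Bard1 the CHR and GCGGGAA matches began 242 and 208 bases before it. The 3 CCAAT matches of Brip1 began 99, 67 and 34 bases before the start, and the 2 of Clspn 69 and 21 bases before it. In Fancm the CCAAT and GCGGGAA matches began 63 and 54 bases before the start.

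Among the checkpoint genes, Atm, the kinase that responds to double-strand breaks, differed most between groups. Its FPKM was 5.8 and 10.44 in the vehicle tumours, 4.72, 4.73 and 4.86 with OPG-Fc, 5.28, 2.85 and 4.38 with palbociclib, and 4, 3 and 2.17 with the combination. The 3 combination tumours lay below every vehicle and every OPG-Fc tumour, and all treated tumours lay below both vehicle tumours. The group means were 8.12 ± 3.28 (SD, n = 2), 4.77 ± 0.0781 (SD, n = 3), 4.17 ± 1.23 (SD, n = 3) and 3.06 ± 0.916 (SD, n = 3) in the same order. The combination minus vehicle difference was -1.15 ± 0.29 (adjusted p = 0.0715 by limma), and -0.77 ± 0.30 without vehicle replicate 2 (adjusted p = 0.173 by limma). Clspn, which brings Chek1 to ATR, was at 5.91 and 13.12 FPKM with vehicle and at 6.89, 7.2 and 5.81 with OPG-Fc. With palbociclib it was at 4.39, 3.5 and 6.5, and with the combination at 7.26, 5.03 and 3.84. Its groups overlapped, with vehicle replicate 1 within the range of each treated group and vehicle replicate 2 above all other libraries. Chek1, the kinase below ATR, went against the other checkpoint genes in vehicle replicate 2, where it had its lowest FPKM, 8.26, against 11.75 to 23.78 in the other 10 libraries (a gene picked out after its values were seen). Atr ranged from 3.62 to 7.7 and Topbp1 from 20.74 to 37.51, and both were highest in vehicle replicate 2 and lowest in combination replicate 3.

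The 4 end resection genes varied by similar amounts, with the highest library 1.66 to 1.71 times the lowest when vehicle replicate 2 was set aside. Rad50, the large subunit of the complex that holds and trims broken ends, was at 12.72 and 11.06 FPKM with vehicle and at 11.67, 11.48 and 11.52 with OPG-Fc. It was at 10.32, 9.16 and 12.47 with palbociclib, and at 10.97, 8.96 and 7.44 with the combination. The combination tumours lay below every vehicle and OPG-Fc tumour, narrowly so for combination replicate 1. Nbn, its partner subunit that recruits ATM, was at 8.42 and 12.56 with vehicle, 11.46, 9.97 and 11.06 with OPG-Fc, 9.12, 10.84 and 10.87 with palbociclib, and 13.7, 12.7 and 8.13 with the combination. Its 4 groups overlapped, and combination replicates 1 and 3 held both its highest and its lowest value. Rbbp8, which starts resection, ranged from 9.91 to 16.43, and Exo1, which extends it, from 5.21 to 8.69.

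Of the BRCA complex genes, Bard1, the partner of BRCA1 in its ubiquitin ligase, separated the single drugs. Its FPKM was 7.26 and 4.88 with vehicle, 5.99, 6.17 and 6.27 with OPG-Fc, 4.9, 4.31 and 5.04 with palbociclib, and 6.04, 4.59 and 5.12 with the combination. All palbociclib tumours lay below all OPG-Fc tumours, as they did for 21.8% of all tested genes, and vehicle replicate 2 was among the low libraries. The difference of palbociclib averaged over OPG-Fc was -0.24 ± 0.12 (adjusted p = 0.189 by limma), and -0.36 ± 0.11 without vehicle replicate 2 (adjusted p = 0.0795 by limma). Palb2, the bridge between BRCA1 and BRCA2, was at 2.07 and 3.98 with vehicle, 2.27, 2.27 and 1.87 with OPG-Fc, 1.4, 2.34 and 2.12 with palbociclib, and 2.51, 2.09 and 2.02 with the combination. Its groups overlapped, with vehicle replicate 1 within the range of each treated group and vehicle replicate 2 above all other libraries. Brca1 ranged from 3.93 to 7.77, Brca2, a partner of PALB2, from 1.81 to 3.33, and Brip1, a helicase that binds BRCA1, from 1.76 to 3.83. Brip1 was at 1.84 and 1.95 in palbociclib replicates 1 and 2 and at 3.75 in replicate 3, a spread that its 3 OPG-Fc tumours, at 2.95 to 3.16, did not show.

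The strand exchange genes included Xrcc2 and Xrcc3, which support the invading strand. Xrcc2 was at 3.79 and 6.03 FPKM with vehicle, 3.74, 4.14 and 3.57 with OPG-Fc, 2.9, 2.95 and 4.06 with palbociclib, and 4.01, 4.26 and 3.46 with the combination. Palbociclib replicates 1 and 2 were its lowest libraries, and replicate 3 lay among the other groups. Xrcc3 was at 2.94 and 3.65 with vehicle, 3.58, 4.17 and 3.59 with OPG-Fc, 3.74, 3.58 and 4.56 with palbociclib, and 4.05, 3.39 and 4.5 with the combination. It was among the few members with a positive difference of palbociclib averaged over OPG-Fc, 0.13 ± 0.12 (adjusted p = 0.429 by limma). Rad51ap1, which promotes the pairing of strands, is given because of its values. It was at 5.7 and 9.27 with vehicle, 6.35, 6.93 and 5.77 with OPG-Fc, 4.79, 4.93 and 7.46 with palbociclib, and 9.23, 7.98 and 7.61 with the combination. The combination tumours lay above every palbociclib and every OPG-Fc tumour, at 8.27 ± 0.849 (SD, n = 3) against 5.73 ± 1.503 (SD, n = 3) and 6.35 ± 0.58 (SD, n = 3). Rad54l and Rad54b, motor proteins that move along DNA, ranged from 3.63 to 10.6 and from 3.87 to 7.75. Vehicle replicate 2 was the highest library of Rad54l and the lowest of Rad54b.

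In 4 of the 7 Fanconi genes vehicle replicate 2 stood at least 1.5-fold above every other library. Fancd2, the clamp subunit that is ubiquitinated at crosslinks, was at 2.44 and 5.26 FPKM with vehicle, 2.44, 2.72 and 2.18 with OPG-Fc, 1.57, 1.25 and 2.34 with palbociclib, and 2.68, 2.12 and 1.71 with the combination. Its partner Fanci was at 2.05 and 4.99 with vehicle, 1.57, 2.61 and 2.21 with OPG-Fc, 1.43, 1.17 and 1.65 with palbociclib, and 2.33, 1.95 and 1.31 with the combination. In both genes all palbociclib tumours lay below both vehicle tumours, but vehicle replicate 1 lay within the range of the OPG-Fc tumours. In Fancb, of the core complex, the palbociclib tumours also lay below the vehicle tumours, at 1.59, 1.91 and 2.93 against 3.37 and 5.26. Fancg, also of the core complex, was at 11.43 in vehicle replicate 2 and at 3.51 to 4.72 in the other 10 libraries, and Fancm, the motor protein that anchors the complex, at 5.51 against 0.89 to 1.97. Fanca ranged from 4.16 to 6 and Fancc from 2.9 to 4.19, with vehicle replicate 2 inside both ranges.

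Genes for joint molecules fell into the BLM complex, which dissolves them, and the nuclease of MUS81 and EME1, which cuts them. Rmi1, a scaffold of the BLM complex, was at 8.55 and 16.38 FPKM with vehicle, 7.51, 7.6 and 7.25 with OPG-Fc, 5.93, 6.17 and 8.02 with palbociclib, and 9.13, 7.05 and 4.81 with the combination. Rmi2, the second scaffold, was at 1.02 and 5.58 with vehicle, 1.06, 1.53 and 1.4 with OPG-Fc, 0.86, 0.91 and 1.18 with palbociclib, and 1.22, 0.83 and 1.03 with the combination. The value of Rmi2 in vehicle replicate 2 was 3.65 times that of the next library, the largest such gap among the 31 genes. Blm, the helicase itself, ranged from 3.08 to 7.74. Eme1, given because of its values, was at 5.86 and 7.02 with vehicle, 6.61, 8.19 and 6.56 with OPG-Fc, 4.22, 3.68 and 6.57 with palbociclib, and 8.5, 7.83 and 7.39 with the combination. All combination tumours of Eme1 lay above all palbociclib tumours and above both vehicle tumours. Its partner Mus81 ranged from 4.42 in vehicle replicate 1 to 11 in vehicle replicate 2, so that its 2 vehicle tumours were its extremes.

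**Figure D2:**
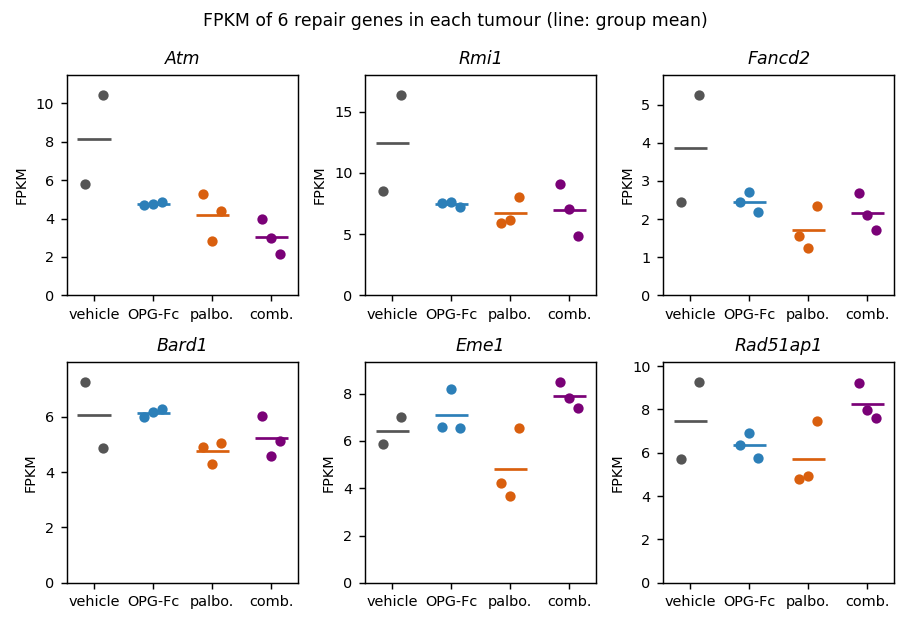
FPKM (vertical axis, from 0) of 6 genes in each tumour, by group, with a line at the group mean; palbo. is palbociclib and comb. the combination. Vehicle replicate 2 is the top point of Atm, Rmi1 and Fancd2, the combination points of Atm are below those of OPG-Fc, and the combination points of Eme1 and Rad51ap1 are above those of palbociclib.

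Vehicle replicate 2 held the highest value of 18 of the 31 genes, against 34.8% of all tested genes, and the lowest of 2, Chek1 and Rad54b, against 29.4%. In 10 genes it exceeded every other library by 1.5-fold or more: Atm, Clspn, Palb2, Rad54l, Fancg, Fancm, Fancd2, Fanci, Rmi1 and Rmi2. Lymphoid transcripts were high in the same library, and their part in these values was not tested.

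The genes also moved together within groups. Palbociclib replicate 3 was the highest of its group for 27 of the 31 genes, against 32.5% of all tested genes; the exceptions were Atm, Palb2, Fancg and Mus81. In the combination group, replicate 1 was the highest for 26 genes, against 39.0% of tested genes, and replicate 3 the lowest for 24, against 48.4%. Combination replicate 3 held the lowest value of all 11 libraries for 11 genes, among them Atm, Atr, Topbp1, Rad50, Brca2 and Brip1, against 22.6% of tested genes. The median FPKM of the 31 genes was 4.65 and 7.7 with vehicle, 5.65, 5.88 and 5.01 with OPG-Fc, 4.22, 3.85 and 5.4 with palbociclib, and 5.93, 5 and 4.16 with the combination. The 3 OPG-Fc tumours were the closest to each other, and the palbociclib and combination groups spanned overlapping ranges. Skin markers were high in palbociclib replicates 1 and 3, where the median of the 31 genes was 4.22 and 5.4. They were not high in replicate 2, where it was 3.85. The part of skin in these values was not tested.

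Palbociclib was first set against vehicle, which asks what CDK4/6 inhibition alone did. The difference was negative for 27 of the 31 genes, with a median of -0.31, against 52.7% of all tested genes and a median of -0.04. None passed, as for all genes (0% called by limma in both fits). At unadjusted p under 0.05 limma had 6 of the 31 genes lower and 0 higher. Over both directions this was a smaller share than the 28.1% of all genes. Of the 13074 tested genes, 1891 were lower and 1780 higher, so for lower genes alone the share was larger among the 31. The 6 were Fanci (-0.83 ± 0.30), Clspn (-0.80 ± 0.34), Atm (-0.80 ± 0.29), Fancd2 (-0.79 ± 0.28), Fancb (-0.76 ± 0.27) and Rmi1 (-0.75 ± 0.29), with adjusted p of limma from 0.158 to 0.172. Without vehicle replicate 2 the same 6 were at -0.34, -0.29, -0.42, -0.36, -0.50 and -0.32, the median was -0.15, and 23 genes were negative. Bard1 was then the sole gene at unadjusted p under 0.05 (-0.52 ± 0.18, adjusted p = 0.413 by limma), against 9.68% of all genes. The palbociclib tumours lay wholly below the vehicle tumours for 6 genes, Atm, Atr, Fancb, Fancd2, Fanci and Rmi1, against 20.2% of tested genes, and wholly above for 0, against 16.4%. Leaving out palbociclib replicate 3 instead moved the median to -0.50.

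OPG-Fc against vehicle gave a median of -0.09 over the 31 genes, with 22 negative, against 0.04 over all tested genes. Single genes ranged from -0.65 for Rmi2 to 0.30 for Rad54b. None passed (0% of all genes called by limma), and 0 were at unadjusted p under 0.05, against 10.2%. When vehicle replicate 2 was left out the direction turned: 21 genes were positive and the median was 0.08, with 0.00765% of all genes called by limma and none of the 31. Mus81 was then the sole gene at unadjusted p under 0.05 (0.56 ± 0.23, adjusted p = 0.355 by limma), against 12.5%. The OPG-Fc tumours lay wholly below the vehicle tumours for 4 genes (Atm, Atr, Fancb and Rmi1), against 8.57% of tested genes, and wholly above for Rad54b, against 12.7%. Muscle marker medians were higher in all OPG-Fc tumours (2.42 to 45.3 FPKM) than in the vehicle tumours (0.105 and 0.14). They were likewise higher in all palbociclib tumours (5.1 to 25.9) and all combination tumours (5.2 to 45.9). The part of muscle in the comparisons with vehicle was not tested.

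The combination against vehicle had its largest difference in Atm, given above. The median was -0.22 with 20 genes negative, against -0.01 over all genes, and 0% of genes were called by limma. At unadjusted p under 0.05 limma had 3 genes lower, Atm, Rmi1 (-0.72 ± 0.29) and Atr (-0.49 ± 0.21), a smaller share than the 29.6% of all genes. The adjusted p of limma was 0.14 for Rmi1 and 0.159 for Atr. In the fit without vehicle replicate 2 the median was 0.02 with 17 genes positive, and 0.0612% of all genes but none of the 31 were called by limma. At unadjusted p under 0.05 there were then 3 genes, Atm and Bard1 (-0.41 ± 0.18) lower and Mus81 (0.59 ± 0.23) higher, against 23.1% of all genes, and their adjusted p of limma ran from 0.173 to 0.204. The combination tumours lay wholly below the vehicle tumours for Atm, Atr and Rad50, against 17.8% of tested genes, and wholly above for Eme1, against 18%.

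Adding OPG-Fc to palbociclib is the comparison of the combination with palbociclib alone, which uses no vehicle tumour. The difference was positive for 26 of the 31 genes, with a median of 0.12, against 52.7% of all genes and a median of 0.02. The 5 negative genes were Atm, Atr, Rad50, Brca2 and Fancm. Eme1 (0.64 ± 0.19, adjusted p = 0.655 by limma) and Rad51ap1 (0.48 ± 0.21, adjusted p = 0.73 by limma) were at unadjusted p under 0.05, and 0 were lower, against 6.75% of all genes, while 0% were called. Without vehicle replicate 2, which changes only the estimate of the spread here, the adjusted p of limma was 0.141 for Eme1 and 0.209 for Rad51ap1. The same 2 genes were then at unadjusted p under 0.05, against 17.7% of all genes, with 0% called. They were also the 2 whose combination tumours lay wholly above the palbociclib tumours, against 13.7% of tested genes, and 0 lay wholly below, against 7.04%. The median was 0.01 without combination replicate 1 and 0.27 without combination replicate 3.

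Adding palbociclib to OPG-Fc is the comparison of the combination with OPG-Fc alone. The 31 genes were split, 17 negative and 14 positive, and both their median and that of all genes were -0.07 to 2 decimals. With quantile normalization the median of the 31 turned to 0.16 and that of all genes to 0.02. Limma called 0.0994% of all genes, or 4.7% without vehicle replicate 2, and none of the 31 in either fit. Atm had the lowest difference (-0.53 ± 0.26, adjusted p = 0.348 by limma), and was the sole gene at unadjusted p under 0.05 without vehicle replicate 2 (-0.53 ± 0.21, adjusted p = 0.125 by limma), against 31.3% of all genes. With all libraries 0 of the 31 genes were at unadjusted p under 0.05, against 15.5%. Rad51ap1 had the highest difference (0.33 ± 0.21, adjusted p = 0.451 by limma). Atm and Rad50 were wholly below the OPG-Fc tumours, against 23.5% of tested genes, and Rad51ap1 wholly above, against 15.3%. Leaving out combination replicate 1 moved the median to -0.19, and leaving out replicate 3 turned it to 0.07.

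Between the single drugs, 28 of the 31 genes were lower with palbociclib than with OPG-Fc, against 56.1% of all genes. The median was -0.17 against -0.04 over all genes, though with quantile normalization these turned to 0.03 and 0.05. The 3 others were Xrcc3, Chek1 and Fancc, at 0.05 to 0.08. Limma called 0.91% of all genes, or 10.3% without vehicle replicate 2, and none of the 31 in either fit. Eme1 was lowest (-0.51 ± 0.19, adjusted p = 0.301 by limma, or 0.117 without vehicle replicate 2), and was the sole gene at unadjusted p under 0.05 with all libraries, against 12.3%. Bard1 joined it without vehicle replicate 2 (-0.32 ± 0.12, adjusted p = 0.154 by limma), against 24.1% of all genes. Bard1 was the gene whose palbociclib tumours lay wholly below the OPG-Fc tumours, against 21.8% of tested genes, and 0 lay wholly above, against 11.3%. The median was -0.29 without palbociclib replicate 3 and -0.11 without replicate 2. Marker levels also differed between these groups. Fat marker medians were 1.3 to 2.6 FPKM with palbociclib and 27.2 to 90.8 with OPG-Fc. Medians of 10 epithelial markers were 116 to 139 with palbociclib and 68.5 to 88.1 with OPG-Fc. The lymphoid median was 17.4 in OPG-Fc replicate 2. The part of cell content in this comparison was not tested.

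Averaged over both levels of OPG-Fc, palbociclib-treated tumours differed from the others with a median of -0.21 over the 31 genes, 25 of them negative, against -0.04 and 53.8% over all genes. Limma called 2.83% of all genes and none of the 31. At unadjusted p under 0.05 there were 4 genes, all lower, against 33.9%: Atm (-0.67 ± 0.19, adjusted p = 0.0721 by limma), Clspn (-0.55 ± 0.23, adjusted p = 0.133 by limma), Fanci (-0.48 ± 0.20, adjusted p = 0.133 by limma) and Fancd2 (-0.46 ± 0.19, adjusted p = 0.127 by limma). By role the medians were -0.38 for Fanconi genes, -0.33 for joint molecules, -0.27 for the checkpoint, -0.19 for BRCA complexes, -0.02 for end resection and 0.00 for strand exchange. With that library left out the order changed to -0.24 for the checkpoint, -0.17 for BRCA complexes, -0.12 for joint molecules, -0.07 for Fanconi genes, 0.04 for end resection and 0.09 for strand exchange. The median of the 31 was then -0.11, with 23 genes negative, against -0.05 and 56.6%. Limma then called 3.91% of all genes and none of the 31, and Bard1 and Atm (-0.48 ± 0.18, adjusted p = 0.131 by limma) were at unadjusted p under 0.05, against 28.5%. Rad50 (-0.24 ± 0.12, or -0.29 ± 0.13 without vehicle replicate 2) and Bard1 were further from 0 when that library was left out. Nbn was near 0 (0.02 ± 0.16).

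**Figure D3:**
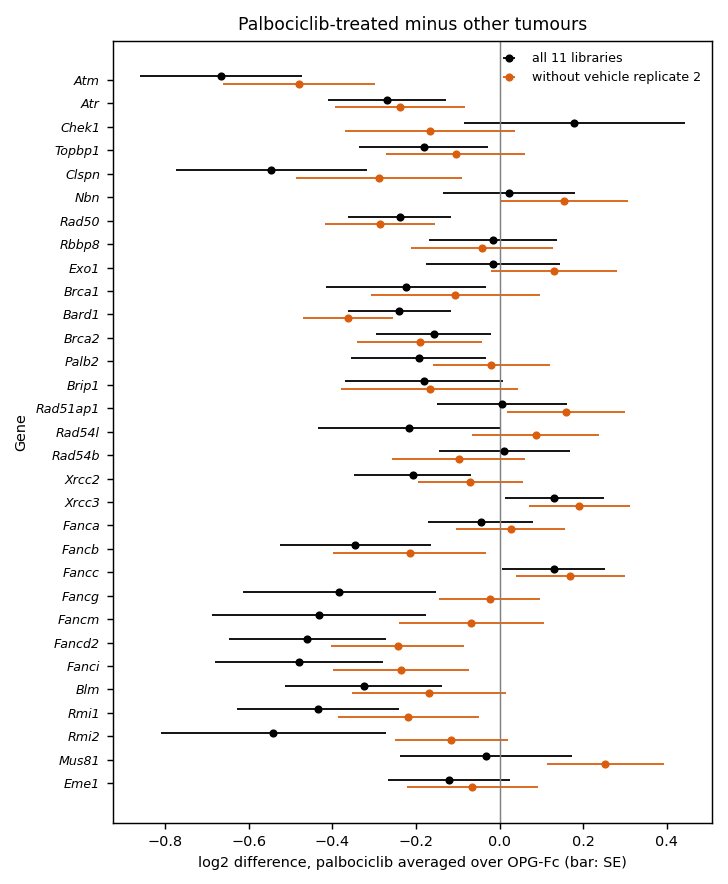
Difference in log2(FPKM + 1) between palbociclib-treated and other tumours, averaged over OPG-Fc, with bars of 1 standard error, for each of the 31 genes with all 11 libraries (black) and without vehicle replicate 2 (orange). With all libraries 25 genes lie left of 0 and Atm is lowest at -0.67; without that library most points move towards 0, while Bard1 moves to -0.36.

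OPG-Fc averaged over both levels of palbociclib had a median of -0.03 with 17 genes negative, against 0.03 over all genes. Limma called 0% of all genes, and 2 of the 31 were at unadjusted p under 0.05, against 10.5%: Eme1 higher (0.38 ± 0.15, adjusted p = 0.426 by limma) and Atm lower (-0.48 ± 0.19, adjusted p = 0.448 by limma). Without vehicle replicate 2 the median was 0.12 with 24 genes positive, and 3.46% of all genes were called by limma but none of the 31. Eme1 (0.44 ± 0.16, adjusted p = 0.151 by limma) and Mus81 (0.34 ± 0.14, adjusted p = 0.208 by limma), the partners of 1 nuclease, were then at unadjusted p under 0.05, against 20.4% of all genes. With all libraries Mus81 was at 0.05 ± 0.21.

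The interaction asks whether palbociclib acted differently with OPG-Fc than without. It was positive for 24 of the 31 genes, with a median of 0.26, against -0.02 over all genes, and 0% of genes were called by limma. Fancb alone was at unadjusted p under 0.05 (0.83 ± 0.36, adjusted p = 0.647 by limma), against 5.42% of all genes. Without vehicle replicate 2 the median was 0.00 with 15 genes positive, 0 of the 31 were at unadjusted p under 0.05, against 4.84% of all genes, and 0% were called. The smallest adjusted p of limma over the 31 genes was then 0.951.

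In each of the 9 comparisons and both fits, the share of the 31 genes at unadjusted p under 0.05 by limma, counted over both directions, was below that of all tested genes. By single direction, with all libraries, this did not always hold. The share of the 31 was larger for lower genes in palbociclib against vehicle (6, against 1891 of 13074) and OPG-Fc averaged (1, against 383). It was also larger for higher genes in the combination against palbociclib (2, against 552) and the interaction (1, against 301). The comparisons share tumours, so they are not independent evidence.

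Neighbouring pathways were measured through lists that leave out the 31 genes. Of 55 other recombination and Fanconi genes, 0 passed in any comparison or fit. The 2 with the smallest p for palbociclib averaged over OPG-Fc were Fance of the Fanconi core complex (0.59 ± 0.15, adjusted p = 0.0591 by limma) and Mdc1, an adaptor at ATM-marked breaks (-0.82 ± 0.21, adjusted p = 0.0595 by limma). Of 19 end joining genes, which rejoin breaks without a template, 1 passed, without vehicle replicate 2 alone, in a comparison where 10.3% of all genes passed. Dclre1c, the nuclease Artemis, fell with palbociclib against OPG-Fc (-0.93 ± 0.19, adjusted p = 0.0139 by limma), and with all libraries the same difference had an adjusted p of 0.241 by limma. Of 38 replication and G1/S genes, Gins2, part of the replicative helicase, rose in the combination against OPG-Fc without vehicle replicate 2 (0.54 ± 0.12, adjusted p = 0.0446 by limma, or 0.293 with all libraries); 4.7% of all genes passed there.

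Genes of G2/M and mitosis had the lowest median of the lists between the single drugs. All 32 were lower with palbociclib than with OPG-Fc, and their median was -0.57, against -0.17 for the 31 repair genes, -0.13 for replication and G1/S, -0.08 for the other recombination genes and 0.06 for end joining. Once vehicle replicate 2 was left out, 8 of the 32 passed, all lower, against 10.3% of all genes, and with all libraries 0 passed, against 0.91%. The 6 with the smallest p were Ccnb1 (-0.74 ± 0.15, adjusted p = 0.0144), Cdc20 (-0.73 ± 0.17, adjusted p = 0.0213), Plk1 (-0.75 ± 0.17, adjusted p = 0.0232), Foxm1 (-0.72 ± 0.18, adjusted p = 0.0324), Kif20a (-0.77 ± 0.20, adjusted p = 0.0335) and Cenpf (-0.94 ± 0.24, adjusted p = 0.0388), all by limma. They encode a mitotic cyclin, an activator of the anaphase ubiquitin ligase, a mitotic kinase, a transcription factor of mitotic genes, a kinesin and a kinetochore protein. For OPG-Fc averaged over palbociclib, Cdc20 rose without vehicle replicate 2 (0.77 ± 0.14, adjusted p = 0.0254 by limma), as 1 of the 32 where 3.46% of all genes passed. In the combination against palbociclib the medians were 0.59 for G2/M, 0.24 for replication, 0.13 for the other recombination genes, 0.12 for the repair genes and 0.04 for end joining. These differences between lists were not tested.

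The order of the libraries was shared between lists. The mean log2(FPKM + 1) of the G2/M list was 4.16 and 4.19 in palbociclib replicates 1 and 2 and 4.77 in replicate 3, and that of the replication list was 4.34, 4.40 and 4.75. For the 31 repair genes the same 3 means were 2.38, 2.34 and 2.70. Palbociclib replicate 3 was thus the highest of its group in each list, and combination replicate 1 was the highest of its group for G2/M (5.25), replication (4.93) and repair (2.80). Combination replicate 3, by contrast, was at 2.37 for the repair genes, near the lowest palbociclib tumours, but at 4.76 for G2/M, near vehicle replicate 1 at 4.71. End joining means spanned 2.91 to 3.07 in the 10 libraries other than vehicle replicate 2, which was at 3.39.

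**Figure D4:**
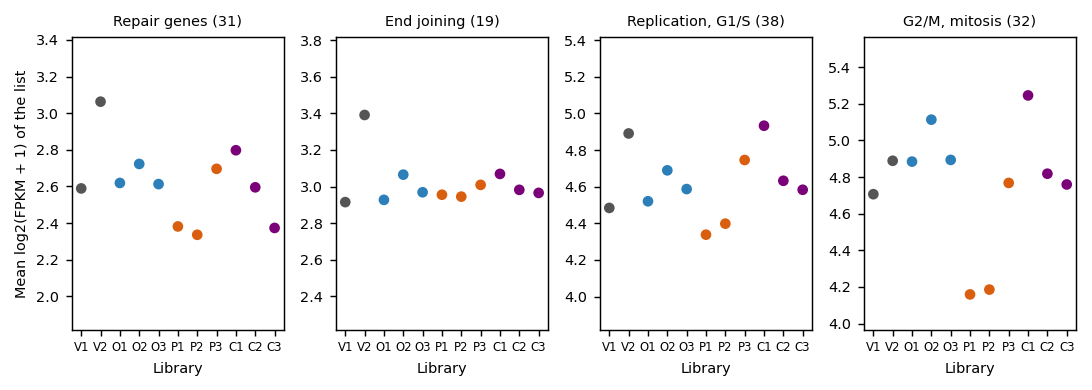
Mean log2(FPKM + 1) of 4 gene lists (number of genes in brackets) in each library, V for vehicle, O for OPG-Fc, P for palbociclib and C for the combination, numbered by replicate; every panel spans the same range. Vehicle replicate 2 is highest for repair and end joining, P1 and P2 lie below P3 for repair, replication and G2/M, and C3 is low for repair (2.37) but not for G2/M (4.76).

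Transcript length moved with the libraries. The 31 genes have long transcripts, from 2067 bases for Mus81 to 10724 for Brca2, with a median of 4212 against 3052 over the tested genes with a length (96.9% of them). Within a library, each gene's deviation from its mean over 11 libraries was ranked against length. Over the 31 genes Spearman's rho was -0.69 in combination replicate 3, -0.37 in combination replicate 2 and -0.30 in palbociclib replicate 2, and 0.52 in vehicle replicate 1 and 0.53 in OPG-Fc replicate 1. Over all tested genes it was -0.64, -0.27, -0.29, 0.43 and 0.46, so the 31 genes followed the whole library in these. In combination replicate 1 it was -0.14 over the 31 genes and -0.33 over all, and in OPG-Fc replicate 2 -0.05 and 0.10. The remaining libraries had rho of the same sign over both sets of genes. Genes of 1 library share its preparation and depth, and these correlations across genes are descriptions. In combination replicate 3 the 16 longer genes had a median deviation of -0.44 and the 15 shorter ones of -0.09. Of the 11 genes with their lowest value there, Atm, Atr, Brca2 and Brip1 have transcripts of 9819, 8102, 10724 and 6931 bases, but Nbn and Rbbp8 have 2533 and 3523. Exo1, with 7796 bases, was lowest in vehicle replicate 1.

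The trend was also found in differences between groups, to unequal degrees. For palbociclib averaged over OPG-Fc, rho with length was -0.43 over the 31 genes (-0.64 without vehicle replicate 2) and -0.36 over all genes (-0.55). The 16 longer genes had a median difference of -0.25 and the 15 shorter ones of -0.03. For the combination, rho over the 31 genes was -0.66 against OPG-Fc, -0.47 against palbociclib and -0.42 against vehicle, with -0.58, -0.51 and -0.41 over all genes. With all libraries it was weaker for OPG-Fc against vehicle (-0.25), for palbociclib against vehicle (-0.19) and for palbociclib against OPG-Fc (-0.10). Over all genes these were -0.11, -0.18 and -0.24. Without vehicle replicate 2, rho over the 31 genes against vehicle was -0.43 for OPG-Fc, -0.40 for palbociclib and -0.67 for the combination. Over all genes these were then -0.20, -0.40 and -0.63. In palbociclib against vehicle the longer genes had a median of -0.29 and the shorter ones of -0.32 with all libraries. Without vehicle replicate 2 these medians were -0.22 and -0.03. When each library was corrected for length by a spline, the median for palbociclib averaged over OPG-Fc went from -0.21 to -0.03. That for palbociclib against OPG-Fc went from -0.17 to -0.03, and that for the combination against OPG-Fc from -0.07 to 0.15. The medians of all genes tested also moved. In the same order they went from -0.04 to 0.01, from -0.04 to 0.08 and from -0.07 to 0.04. Against vehicle, the median of palbociclib went from -0.31 to -0.16 and that of the combination from -0.22 to -0.07. Over all genes these went from -0.04 to -0.02 and from -0.01 to -0.02. The part of length in the values of Atm and of the other long genes was not tested further.

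**Figure D5:**
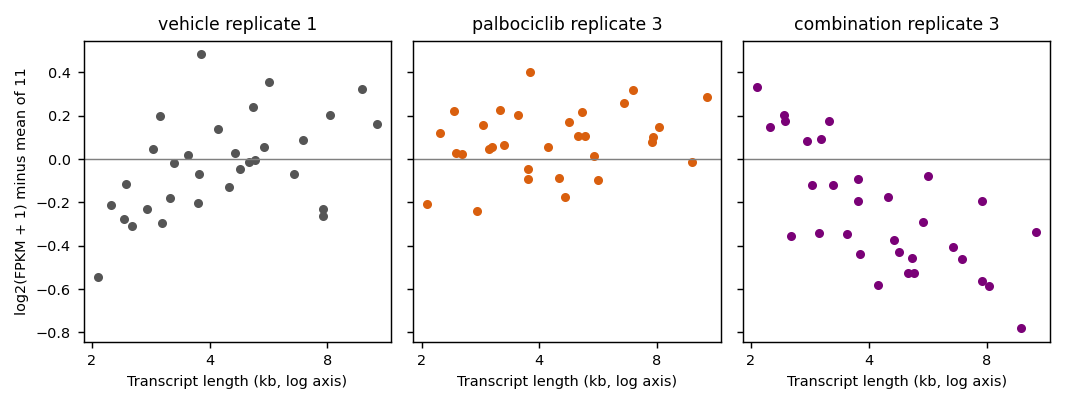
Deviation of each of the 31 genes from its mean over 11 libraries, in log2(FPKM + 1), against transcript length in kilobases on a log axis, in 3 libraries; the grey line is 0. Longer genes lie higher in vehicle replicate 1 (rho 0.52) and lower in combination replicate 3 (rho -0.69), and palbociclib replicate 3 shows a rho of 0.22.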

How the data were processed

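Poly(A) RNA of 11 tumours was sequenced, and the authors deposited FPKM values, rounded to 2 decimals, for 17181 gene symbols in 1 table. The builds GRCm39 and mm39 and the tools RSEM, Bowtie2 and HISAT are named per the submitters' processing notes; versions and roles are not given in the sources used here. No whole-read steps were found in the low values, so no count test was run. Columns were matched to samples by the labels' descriptions.

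FPKM was taken as log2(FPKM + 1), a pseudocount of 1. Genes reaching an FPKM of 1 in 2 or more of the 11 libraries were kept (13074), and all libraries were fitted by group with limma 3.58.1 (trend in the variance prior) in R 4.3.3, after the fit was tested on simulated data. The 9 comparisons were the 6 pairs of groups, both drug averages, and the interaction between the drugs. To pass, a gene needed an adjusted p (Benjamini-Hochberg, over the whole table of tested genes) under 0.05. Figures used matplotlib 3.10.9 in Python 3.11.15.

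The 31 genes, their roles, the other lists and the markers (epithelial, lymphoid, skin, fat and muscle) were chosen with earlier results of these data known, as was the choice to print the fit without vehicle replicate 2 throughout. Values in every library are given for genes that passed (none) and for the 2 of each role with the smallest p for palbociclib averaged over OPG-Fc. Other genes given per library were picked after their values were seen. Of the other lists, up to 6 genes that passed are named, or else the 2 with the smallest p in that comparison. Promoters were printed for genes given per library with an E2F or CHR match, and others were added. Transcript lengths are those of the longest coding transcript by symbol in GENCODE M21, on the older build GRCm38, which also underlies the promoters. The alternatives were the pseudocount (0.1), the filter (none, or FPKM of at least 5), 2 scalings, the replicate number as a block, each library left out, and 2 length corrections chosen after seeing the data.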

Additional observations from a re-analysis of the deposited data

How the results depend on the processing

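None of the 31 genes passed in any comparison with a pseudocount of 0.1, no filter, an FPKM of at least 5 (19 of the 31 genes tested), median-of-ratios scaling, quantile normalization, the length correction, or without any 1 library other than vehicle replicate 1. Without vehicle replicate 1, which leaves vehicle replicate 2 as the sole control, genes that passed numbered 15 for palbociclib against vehicle, 9 for OPG-Fc against vehicle, 11 for the combination against vehicle, 12 and 5 for palbociclib and OPG-Fc averaged, and 11 for the interaction; the cause was not tested. Of all genes, 52%, 40.3%, 50.8%, 53%, 30.7% and 36.7% passed in these 6 comparisons, larger shares than of the 31. Over fits leaving out 1 library, counts ran from 0 to these values, and stayed at 0 in the 3 other comparisons. Medians ran from -0.55 to -0.15 for palbociclib against vehicle, -0.33 to 0.08 for OPG-Fc against vehicle, -0.45 to 0.02 for the combination against vehicle, 0.01 to 0.27 for the combination against palbociclib, -0.19 to 0.07 for the combination against OPG-Fc, -0.29 to -0.11 for palbociclib against OPG-Fc, -0.30 to -0.11 for palbociclib averaged, -0.11 to 0.12 for OPG-Fc averaged, and -0.00032 to 0.60 for the interaction. The count of all genes called for palbociclib averaged ran from 2 to 6927 over these fits. With quantile normalization the medians of the combination and of palbociclib against OPG-Fc turned to 0.16 and 0.03, that of palbociclib averaged went to -0.06, that of OPG-Fc against vehicle to -0.26, that of OPG-Fc averaged to -0.08 and that of the interaction to 0.39. Over all genes the same medians were 0.02, 0.05, 0.01, -0.04, -0.02 and 0.05. Median-of-ratios scaling moved the combination and palbociclib against OPG-Fc to -0.0064 and -0.10. It moved the medians of all genes there to -0.0099 and 0.03. The filter at 5 turned OPG-Fc averaged to 0.05, against 0.04 over all genes. The length correction alone gave -0.16 and -0.07 for palbociclib and the combination against vehicle, 0.21 for the combination against palbociclib and 0.46 for the interaction. Over all genes these were -0.02, -0.02, -0.0037 and 0.07. With the length correction without vehicle replicate 2, chosen after seeing the data, medians were -0.043 for palbociclib against vehicle, 0.167 for the combination against vehicle and 0.040 for palbociclib averaged, and 1 gene, Exo1, passed for the combination against OPG-Fc (higher), where 2.74% of all genes passed. After group means were taken off, same-numbered replicates of different groups correlated at -0.41 to 0.53 over 15 pairs. Other pairs correlated at -0.53 to 0.43 over 30. The deviations of the 2 vehicle tumours are then mirror images. These values are therefore not independent and cannot decide whether the numbers pair the samples. With the replicate block 0 of the 31 genes passed, the medians were -0.30 for palbociclib against vehicle, -0.21 for palbociclib averaged and 0.21 for the interaction, and genes called for palbociclib averaged went from 370 to 7. Unknown read depth limits the genes at 1 to 3 FPKM most, among them Rmi2, Fancm, Fanci, Fancd2 and Palb2.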
